A study of Mus musculus with 6 samples.

Results

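The transforming growth factor β (TGF-β) and bone morphogenetic protein (BMP) pathway was followed through 50 genes in endothelial cells of mouse small intestine. The genes were taken as a list of ligands, receptors, SMAD proteins and their regulators, ID genes, antagonists and latency genes. This list was chosen with earlier results of these data known. Every array probe whose RefSeq accession names 1 of the genes was used. All 50 genes had such a probe, among 22911 named genes on the arrays, and 74 of the 56605 probes other than controls belonged to them. Cells without CD45 and with CD31 had been sorted by CD90 into CD90-negative blood vascular endothelial cells (VECs) and CD90-positive lymphatic endothelial cells (LECs). Up to 10000 cells of each sample went to RNA, and the samples are labelled VEC 2, 3 and 4 and LEC 6, 7 and 8. All were from female mice, the labels name no treatment, and the strain and age of these mice are not given in the sources used here. The question of the comparison was how the transcriptome of intestinal LECs differs from that of VECs.

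Ligands of this family bind pairs of type II and type I receptors, which phosphorylate receptor SMADs. These join SMAD4 and enter the nucleus. TGF-β and activin act mainly through SMAD2 and SMAD3, and BMPs act through SMAD1, SMAD5 and SMAD9, whose targets include the ID genes and the inhibitory SMAD6 and SMAD7. In endothelium, the type I receptor ALK1 (gene Acvrl1) and its co-receptor endoglin (Eng) transmit BMP signals and are required for normal vessels. TGF-β is secreted in a latent form, held in the matrix by latent TGF-β binding proteins, until it is activated.

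RNA was hybridized to one-color Agilent arrays, and each value below is a normalized log2 signal: the log2 intensity minus the 75th percentile of its array. Values are listed in the order VEC 2, 3, 4 and LEC 6, 7, 8. The 75th percentile lay between 333 and 441 intensity units, and 30929 to 35510 probes per array were well above background. The labelled cell types were borne out by their markers, since 8 of 8 lymphatic markers were higher in LECs and 9 of 9 blood vascular markers were lower. The summed signal of the blood vascular markers, in multiples of the 75th percentile, was 1438 to 1580 in VECs and 138 to 147 in LECs. Most of the LEC sum came from Emcn, which was 1.54-fold higher in VECs. Of 6 pan-endothelial markers, 0 were higher in LECs, 5 were lower and 1 (Tie1) did not pass. Their sum was 252 to 286 in VECs and 153 to 172 in LECs. Pecam1, the gene of CD31, had a log2 difference, LEC minus VEC, of -1.42. A field of the LEC labels, the description, names VECs, and the grouping follows titles and source names. Whether each sample is a mouse of its own is not stated in the labels, so the p-values measure the spread between these samples. As these are bulk samples, fewer cells of a type and less RNA per cell cannot be told apart.

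Of the 50 genes, 45 had a probe well above background throughout 1 group (3 of 3 arrays) or both, and were tested. A gene was represented by its brightest tested probe. In LECs 14 were higher and 22 were lower, and 9 did not pass (limma, Benjamini-Hochberg adjusted p under 0.05 over all 33777 probes tested). The 36 that passed are 80.0% of those tested, against 66.9% of all 14971 named genes tested. By direction, 31.1% were higher and 48.9% lower, against 34.9% and 32.0% of all genes. A difference of at least 2-fold was called for 25 genes (55.6%, against 25.1% of all genes). Of these 6 were higher and 19 lower in LECs, or 13.3% and 42.2%, against 12.0% and 13.1% of all genes. The median log2 difference, LEC minus VEC, was -0.20 over the 45 genes and 0.02 over all genes tested. All LEC arrays lay above all VEC arrays for 15 of the 45 and below them for 22, against 39.1% and 35.9% of all genes. Of the 45 genes, 5 (Bmp7, Gdf10, Acvr1b, Smad9 and Bmper) entered the test through 1 group alone, so these counts describe the tested genes and not the whole list.

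**Figure D1:**
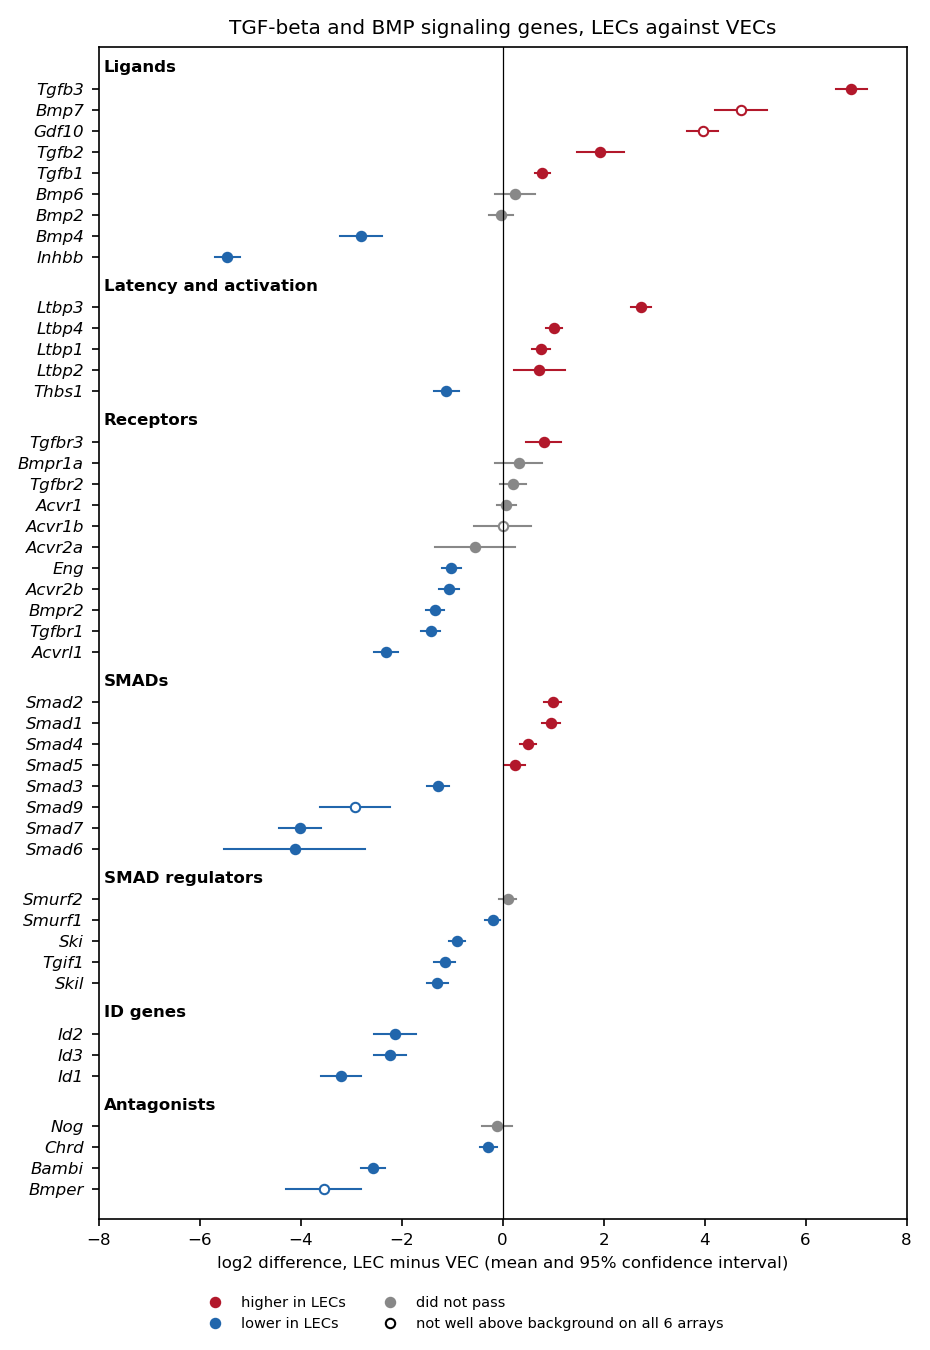
Log2 difference between LECs and VECs (LEC minus VEC, horizontal axis) of the 45 tested genes, grouped by role. Points are limma estimates with 95% confidence intervals, red for higher and blue for lower in LECs and gray for genes that did not pass, and open where not all 6 arrays were well above background. All ID genes and all 4 tested antagonists (of which Nog did not pass) lie to the left, and the TGF-β ligands and their binding proteins to the right.

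Markers of other cells moved with the groups in part. Of 11 mesenchymal markers, 5 were higher in LECs and 0 lower, with a summed signal, in multiples of the 75th percentile, of 3.40 to 4.42 in LECs and 1.32 to 2.07 in VECs. Those higher in LECs were Postn (at least 16.0-fold), Dcn (6.33-fold), Col6a1 (3.07-fold), Col3a1 (2.78-fold) and Col1a1 (1.67-fold). Pdgfra, also in this list and not tested, was well above background on 1 VEC array and on no LEC array. Of 8 smooth muscle and pericyte markers, 3 were lower in LECs and 5 did not pass (sum 34.3 to 44.8 in LECs and 46.6 to 57.0 in VECs). All 4 red cell genes were lower in LECs (0.648 to 3.62 against 26.1 to 63.9). Of 8 myeloid markers 4 were higher and 3 lower (70.1 to 75.3 against 79.4 to 85.1). The higher ones were Aif1 (7.20-fold), Fcer1g (3.50-fold), Adgre1 (at least 3.76-fold) and Lyz2 (at least 3.25-fold). The lower ones were Cd68 (2.23-fold), Cd14 (1.94-fold) and Itgam (1.16-fold), and Itgam made up most of the myeloid sum. Of 8 epithelial markers 1 was higher and 1 lower, of 6 lymphoid markers 2 were lower, and of 6 nerve markers 3 were higher and 1 lower. Krt20, of epithelium, and Cd3g and Ms4a1, of T and B cells, were well above background on 0 of 6 arrays. The part of these cells in the differences of the TGF-β and BMP genes was not tested.

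All 3 TGF-β ligands were higher in LECs, with the difference in Tgfb3 at 119.9-fold. Of the 9 tested ligands of all kinds, 5 were higher and 2 lower (55.6% and 22.2%, against 34.9% and 32.0% of all genes). Tgfb3 had a signal of -1.01, -1.48 and -1.16 in VECs and 5.66, 5.73 and 5.68 in LECs, a log2 difference of 6.91 (standard error, SE, 0.13, adjusted p = 5.6e-07). The signal of Tgfb2 was 1.75, 1.71 and 1.08 in VECs and 3.56, 3.34 and 3.44 in LECs, 3.82-fold higher in LECs (log2 difference 1.93, SE 0.19, adjusted p = 2.9e-04). For Tgfb1, the most widely expressed form, the signal was 1.40, 1.43 and 1.40 in VECs and 2.15, 2.24 and 2.20 in LECs. Its difference was 1.72-fold (adjusted p = 8.7e-05). For each of the 3 genes every LEC array was above every VEC array, as for 39.1% of all genes. The second probes of Tgfb1 and Tgfb2 also passed, at log2 differences of 0.50 and 1.93.

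Of the 8 BMP, growth differentiation factor and inhibin genes among the ligands, Bmp7 and Gdf10 were higher in LECs and Bmp4 and Inhbb were lower. The signal of Inhbb, which encodes the βB subunit of activin B and inhibin B, was 4.03, 4.04 and 4.004 in VECs and -1.41, -1.26 and -1.62 in LECs. It was 43.8-fold higher in VECs (log2 difference -5.45, SE 0.10, adjusted p = 5.8e-07). Bmp4, a ligand of the BMP receptors, stood at 2.70, 2.66 and 2.32 in VECs and at 0.07, -0.48 and -0.32 in LECs. It was 6.98-fold higher in VECs (adjusted p = 3.8e-05), and its second probe gave 7.08-fold. Both genes were thus well above background in LECs as well, at a level far below that of VECs.

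Bmp7 was -4.08, -4.89 and -4.44 in VECs and 0.13, 0.40 and 0.20 in LECs. Since VEC 3 was not well above background, the difference is given as at least 24.3-fold (adjusted p = 1.0e-05 for the difference as measured). Gdf10, also called BMP3B, was well above background on 0 of 3 VEC arrays (-6.92, -6.55 and -6.48) and was -2.77, -2.63 and -2.67 in LECs, at least 4.14-fold higher (adjusted p = 3.0e-06). The sizes of these differences near background depended on the background correction. On median signals corrected by normexp, a model of signal plus background, Bmp7 differed by 2.67 (log2) and Gdf10 by 0.73, in place of 4.72 and 3.96.

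Of the remaining ligands, Bmp2 and Bmp6 did not pass, and Bmp5 and Inhba were not tested. Bmp2 was -2.15, -2.43 and -2.39 in VECs and -2.40, -2.28 and -2.40 in LECs (log2 difference -0.03, 95% confidence interval -0.27 to 0.20, adjusted p = 0.77). For Bmp6, which like Bmp2 is known as an endothelial signal for iron-regulated hepcidin in the liver, values were -0.79, -0.60 and -0.79 in VECs and -0.80, -0.21 and -0.44 in LECs. Its log2 difference was 0.24 (95% confidence interval -0.14 to 0.63, adjusted p = 0.22). Bmp6 passed without LEC replicate 6 (log2 difference 0.40, adjusted p = 0.029) and without scaling between arrays (0.47, adjusted p = 0.020). The groups overlapped in both genes. Bmp5, whose values were -4.64, -6.62 and -5.51 in VECs and -6.93, -5.14 and -6.57 in LECs, was well above background on VEC 2 alone. Inhba, the βA subunit of activin A, was well above background on VEC 4 alone (-4.69, -5.08 and -4.24 in VECs, -5.17, -5.89 and -4.30 in LECs).

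**Figure D2:**
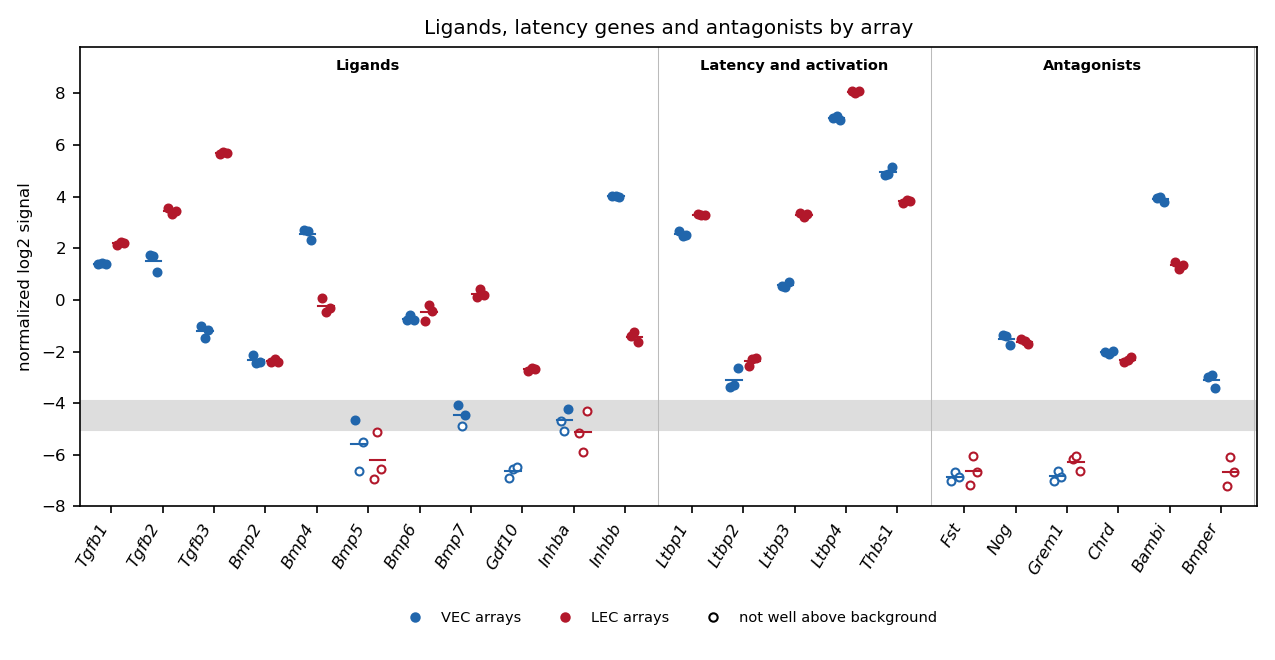
Normalized log2 signal (vertical axis) of the ligands, latency genes and antagonists with VEC arrays in blue, LEC arrays in red and lines at the group means. Open points are not well above background, and the gray band covers the 6 arrays' limits, each the lowest signal well above background. Tgfb3, Bmp7 and Ltbp3 stand out toward LECs, and Inhbb, Bmp4 and Bambi toward VECs.

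The bases before the start of 3 ligand genes that differed at least 2-fold are shown, since they lie next to the starts of genes that moved in opposite directions. They are from the RefSeq annotation of GRCm38.p6, 250 bases each, read 5′ to 3′ on the strand of the gene. Tgfb2 (chr1:186705990-186706239, minus strand) was higher in LECs, and Bmp4 (chr14:46390670-46390919, minus strand) and Inhbb (chr1:119422249-119422498, minus strand) were lower. Capitals mark CAGAC on either strand, the core of the SMAD-binding box, and GGCGCC, a GC-rich site bound by BMP-activated SMADs. GGCGCC reads the same on both strands, and copies of these motifs can share no more than 1 end base.
Tgfb2: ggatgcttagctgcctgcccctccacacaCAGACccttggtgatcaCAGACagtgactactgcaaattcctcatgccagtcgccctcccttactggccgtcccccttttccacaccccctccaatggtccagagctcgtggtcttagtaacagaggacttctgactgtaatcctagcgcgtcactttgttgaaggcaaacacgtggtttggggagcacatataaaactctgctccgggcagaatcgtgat
Bmp4: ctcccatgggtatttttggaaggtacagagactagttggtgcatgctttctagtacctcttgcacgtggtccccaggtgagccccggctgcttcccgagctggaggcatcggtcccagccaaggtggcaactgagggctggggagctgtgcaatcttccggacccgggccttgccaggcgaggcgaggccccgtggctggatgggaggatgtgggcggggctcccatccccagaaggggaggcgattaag
Inhbb: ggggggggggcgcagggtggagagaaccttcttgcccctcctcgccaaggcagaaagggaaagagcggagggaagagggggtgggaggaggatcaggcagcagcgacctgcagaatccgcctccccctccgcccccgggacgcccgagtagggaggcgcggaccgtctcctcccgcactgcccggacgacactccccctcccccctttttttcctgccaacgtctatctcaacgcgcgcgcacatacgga
Tgfb2 held 2 copies of CAGAC, and neither motif was found in the windows of Bmp4 and Inhbb. A match is a description of these letters and not of binding.

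Among the genes that hold TGF-β latent or activate it, the 4 latent TGF-β binding proteins were all higher in LECs and thrombospondin 1 was lower. These are 80.0% and 20.0% of the 5 latency genes, against 34.9% and 32.0% of all genes. Ltbp3, which aids secretion of latent TGF-β, had values of 0.55, 0.48 and 0.68 in VECs and 3.35, 3.22 and 3.34 in LECs. It was 6.67-fold higher (log2 difference 2.74, SE 0.079, adjusted p = 2.1e-06), and 3.19-fold by its second probe. Ltbp4, a partner of elastic fibers, was 7.04, 7.12 and 6.98 in VECs and 8.09, 8.02 and 8.09 in LECs, 2.03-fold higher (adjusted p = 4.9e-05). Every LEC array of these genes was above every VEC array, as for 39.1% of all genes. These matrix genes moved the same way as the mesenchymal markers given above, whose part was not tested.

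Ltbp1, the binding protein that anchors latent TGF-β in the matrix, differed by 0.76 on the log2 scale (adjusted p = 2.4e-04). Ltbp2, a matrix protein that does not itself bind latent TGF-β, differed by 0.73 (adjusted p = 0.023). The call for Ltbp2 was lost when VEC 2, VEC 3, LEC 7 or LEC 8 was left out, at adjusted p from 0.070 to 0.075. Thbs1, which encodes an activator of latent TGF-β, was 4.83, 4.88 and 5.14 in VECs and 3.77, 3.88 and 3.85 in LECs. It was 2.17-fold higher in VECs (adjusted p = 1.8e-04), and its second probe gave 2.62-fold.

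Of the 11 tested receptors, 5 were lower in LECs, 1 was higher and 5 did not pass, so that 54.5% passed against 66.9% of all genes. By direction, 45.5% were lower and 9.1% higher, against 32.0% and 34.9% of all genes. All 5 lower receptors reached 2-fold (45.5% of those tested, against 13.1% of all genes). Acvrl1, the endothelial type I receptor ALK1, was 6.02, 6.09 and 5.80 in VECs and 3.77, 3.58 and 3.62 in LECs. It was 4.96-fold higher in VECs (log2 difference -2.31, SE 0.10, adjusted p = 9.1e-06), and its second probe gave 5.19-fold. Its co-receptor Eng stood at 5.45, 5.49 and 5.28 in VECs and at 4.35, 4.44 and 4.39 in LECs, 2.02-fold higher in VECs (adjusted p = 1.0e-04). Bmpr2, the type II receptor of BMPs, was 4.88, 4.85 and 4.72 in VECs against 3.53, 3.47 and 3.44 in LECs, 2.53-fold higher in VECs (adjusted p = 2.0e-05). The receptors of the ALK1 complex were thus lower in LECs on every array, as were 35.9% of all genes, while remaining well above background there. Most pan-endothelial markers were lower in LECs as well, and their part in these differences was not tested.

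Tgfbr1, the type I receptor of TGF-β, was 0.65, 0.70 and 0.77 in VECs and -0.75, -0.80 and -0.61 in LECs, 2.69-fold higher in VECs (adjusted p = 2.2e-05). Its type II partner Tgfbr2 was 6.63, 6.61 and 6.70 in VECs and 7.03, 6.66 and 6.86 in LECs. That difference did not pass (log2 difference 0.20, 95% confidence interval -0.06 to 0.46, adjusted p = 0.14). Without LEC replicate 7 it did, with a log2 difference of 0.30 and an adjusted p of 0.033. The co-receptor Tgfbr3 (betaglycan), which presents TGF-β2, was the receptor higher in LECs, with a log2 difference of 0.81 (adjusted p = 0.0032). Acvr2b, a type II receptor for activins, was 2.95, 2.98 and 3.09 in VECs and 1.84, 2.03 and 1.96 in LECs, 2.09-fold higher in VECs (adjusted p = 8.0e-05).

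The activin and BMP receptors that did not pass were Bmpr1a, Acvr1, Acvr1b and Acvr2a. Their log2 differences were 0.32 for Bmpr1a (95% confidence interval -0.15 to 0.78) and 0.07 for Acvr1 (-0.12 to 0.26), whose second probe gave -0.08 (adjusted p = 0.58). They were 0.00076 for Acvr1b (-0.56 to 0.56) and -0.54 for Acvr2a (-1.34 to 0.25). The brightest probe of Acvr2a gave 0.08 on VEC 3 against -1.05 and -1.03 on the other VEC arrays. Its second probe showed no such array and passed at -0.59 (adjusted p = 4.9e-04), so the gene's call rests on the choice of probe. Bmpr1b, another type I BMP receptor, was well above background on 0 of 6 arrays.

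**Figure D3:**
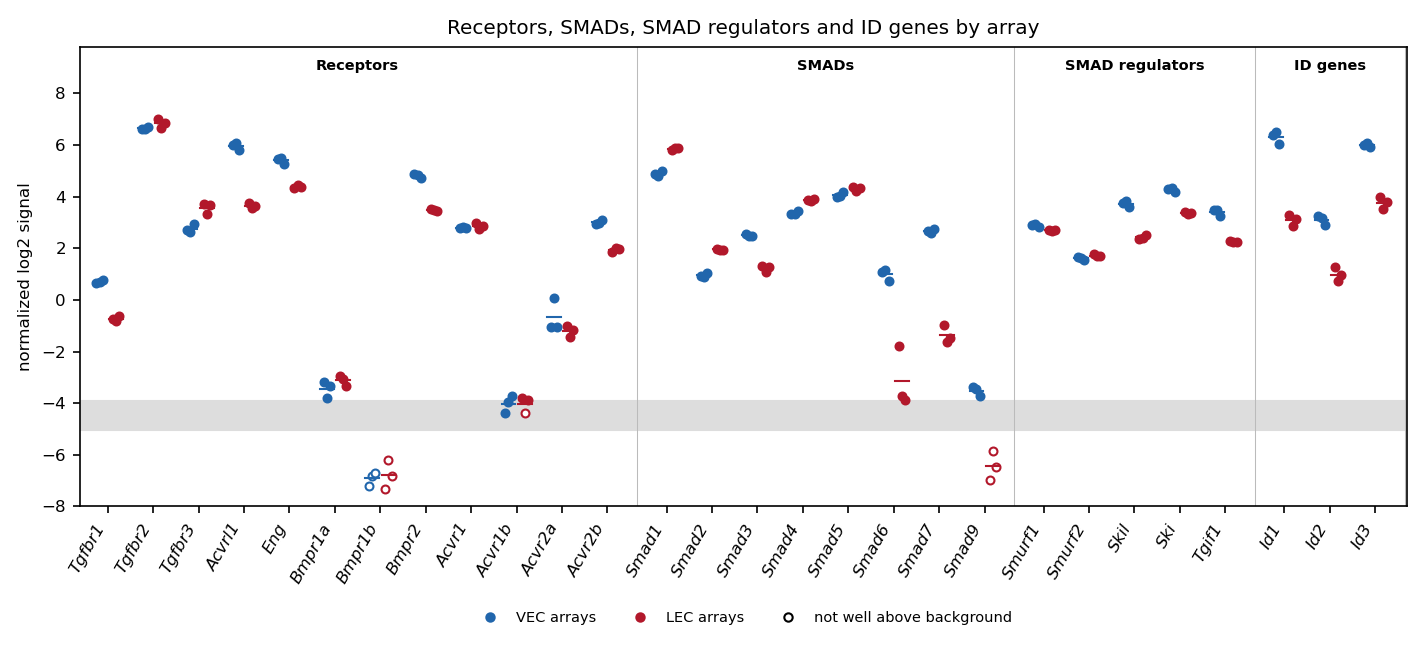
Normalized log2 signal (vertical axis) of the receptors, SMADs, SMAD regulators and ID genes with VEC arrays in blue, LEC arrays in red and lines at the group means. Open points are not well above background, and the gray band covers the 6 arrays' limits, as for the ligands. Smad6 is the gene in which 1 LEC array, LEC 6, stands apart from the other LEC arrays.

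All 8 SMAD genes passed, 4 in each direction. Of all genes 66.9% passed, 34.9% higher in LECs and 32.0% lower. The common partner Smad4 and the receptor SMADs Smad1, Smad2 and Smad5 were higher in LECs, each by less than 2-fold, with log2 differences of 0.50, 0.96, 0.99 and 0.24. Smad3, Smad9 and the inhibitory Smad6 and Smad7 were lower, each by at least 2-fold as measured, as were 13.1% of all genes. Smad5 barely passed (adjusted p = 0.047). Its other probe did not pass (log2 difference 0.10, adjusted p = 0.43), and the call was lost when VEC 2, VEC 3, LEC 6 or LEC 8 was left out (adjusted p from 0.12 to 0.15).

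Smad7, which blocks type I receptors of both branches, was 2.65, 2.60 and 2.73 in VECs and -0.97, -1.62 and -1.46 in LECs. It was 16.1-fold higher in VECs (log2 difference -4.01, SE 0.17, adjusted p = 8.3e-06), and its second probe, well above background on 1 of 3 LEC arrays, showed at least 14.0-fold. Smad6, the inhibitor of the BMP branch, was 1.07, 1.16 and 0.74 in VECs and -1.77, -3.74 and -3.88 in LECs. It was 17.4-fold higher in VECs (log2 difference -4.12, SE 0.57, adjusted p = 0.0012). LEC 6 lay well above LEC 7 and LEC 8, and without it the difference was 27.8-fold. With normexp the log2 difference was -3.00. The summed blood vascular markers were 147 in LEC 6 and 141 and 138 in LEC 7 and LEC 8. Most of this sum came from Emcn, at 6.86, 6.73 and 6.77 in LECs, so it cannot show whether LEC 6 held more VEC RNA. Of the LEC arrays, LEC 7 was the highest in each of the other blood vascular markers. In LEC 6, 7 and 8, Flt1 was 2.40, 2.70 and 2.36 and Plvap was 3.44, 3.64 and 3.31. Whether LEC 6 held more VEC RNA was not tested.

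Smad3, the TGF-β and activin SMAD, was 2.57, 2.47 and 2.49 in VECs and 1.33, 1.08 and 1.29 in LECs, 2.43-fold higher in VECs (adjusted p = 5.9e-05). Smad9 was -3.36, -3.46 and -3.72 in VECs and -6.98, -5.87 and -6.46 in LECs, where 0 of 3 arrays were well above background. The difference was at least 1.96-fold with signals held at or above the lowest signal well above background (adjusted p = 0.023). It was 7.57-fold as measured (adjusted p = 2.6e-04). Normexp gave a log2 difference of -0.74, against -2.92. Smad2 and Smad3, which act in the same branch, thus differed in opposite directions. The 3 LEC arrays were above every VEC array for Smad2 and below every VEC array for Smad3, as for 39.1% and 35.9% of all genes.

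Of the 5 genes that limit SMAD activity in other ways, 4 were lower in LECs and 0 were higher, against 32.0% and 34.9% of all genes. Skil, the corepressor SnoN and a target of TGF-β, was 3.74, 3.83 and 3.59 in VECs and 2.37, 2.39 and 2.50 in LECs. It was 2.46-fold higher in VECs (adjusted p = 4.8e-05), and its other probes gave 2.88-fold and 2.67-fold. Tgif1, a corepressor of SMAD2, was 3.48, 3.48 and 3.25 in VECs and 2.29, 2.24 and 2.23 in LECs, 2.22-fold higher in VECs (adjusted p = 7.8e-05). The related corepressor Ski was 1.88-fold higher in VECs.

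The ubiquitin ligase Smurf1, which marks BMP SMADs for breakdown, was 1.15-fold higher in VECs (log2 difference -0.20, adjusted p = 0.029). The call of Smurf1 was lost when any array except VEC 4 was left out (adjusted p from 0.061 to 0.11). Without scaling between arrays it was 0.03 and did not pass. Smurf2, of the same family, did not pass (log2 difference 0.10, 95% confidence interval -0.06 to 0.27), and its second probe gave -0.02.

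The 3 ID genes, targets of BMP SMADs that encode inhibitors of basic helix-loop-helix factors, were all lower in LECs. Of all genes 32.0% were lower. Id1 was 6.38, 6.49 and 6.05 in VECs and 3.31, 2.88 and 3.13 in LECs, 9.19-fold higher in VECs (log2 difference -3.20, SE 0.16, adjusted p = 1.6e-05). The signal of Id3 was 6.01, 6.06 and 5.93 in VECs and 3.99, 3.51 and 3.79 in LECs, 4.70-fold higher in VECs (adjusted p = 2.9e-05). For Id2 it was 3.26, 3.19 and 2.89 in VECs and 1.26, 0.71 and 0.98 in LECs, 4.37-fold higher in VECs (adjusted p = 1.1e-04). No LEC array reached any VEC array in these genes, as for 35.9% of all genes. The levels of the ID genes in LECs were still well above background.

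The bases before the starts of Id2 (chr12:25096093-25096342, minus strand), Id3 (chr4:136143572-136143821, plus strand) and Smad6 (chr9:64022060-64022309, minus strand) are shown because these genes were lower in LECs together and answer to BMP SMADs. Build, length and capitals are as for the ligands.
Id2: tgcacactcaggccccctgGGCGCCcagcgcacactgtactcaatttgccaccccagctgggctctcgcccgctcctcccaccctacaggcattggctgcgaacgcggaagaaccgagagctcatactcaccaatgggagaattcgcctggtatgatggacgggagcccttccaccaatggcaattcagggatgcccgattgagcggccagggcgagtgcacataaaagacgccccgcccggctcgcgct
Id3: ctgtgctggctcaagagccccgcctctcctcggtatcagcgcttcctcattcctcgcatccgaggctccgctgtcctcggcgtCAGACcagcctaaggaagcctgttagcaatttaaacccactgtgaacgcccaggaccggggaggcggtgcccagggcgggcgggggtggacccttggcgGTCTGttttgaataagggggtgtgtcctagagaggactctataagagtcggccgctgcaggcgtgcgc
Smad6: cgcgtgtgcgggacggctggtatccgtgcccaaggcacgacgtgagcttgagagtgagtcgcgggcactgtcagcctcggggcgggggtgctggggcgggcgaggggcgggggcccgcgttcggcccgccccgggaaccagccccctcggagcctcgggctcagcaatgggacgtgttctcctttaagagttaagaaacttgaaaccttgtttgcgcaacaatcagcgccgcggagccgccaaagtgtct
Id2 held 1 copy of GGCGCC and 0 of CAGAC, Id3 held 0 and 2, and neither was found in the window of Smad6. Of the 50 genes, 36 had such a window in the RefSeq table. The 14 without one were Tgfb3, Bmp7, Tgfbr3, Smad2, Smad4, Acvrl1, Smad7, Id1, Bambi, Skil, Thbs1, Bmp2, Nog and Fst. The motif counts leave these out. GGCGCC was in 9 of the 36 windows (25%), namely in 6 of 16 of genes lower in LECs, 0 of 9 of genes higher, 2 of 7 of genes that did not pass and 1 of 4 of genes not tested, against 15.4% of the windows of all genes tested and 9.54% of all windows in the table. CAGAC was in 5 of 16, 5 of 9, 4 of 7 and 3 of 4 of these, against 40.8% and 42.1%. The median GC content was 68.6% in the windows of lower genes, 61.6% in those of higher genes, 78.8% in those of genes that did not pass and 58.8% over all genes tested, so that the windows also differed in base composition.

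Of the 6 antagonists 4 were tested, of which 3 were lower in LECs, 0 were higher and 1 did not pass. Of all genes 32.0% were lower and 34.9% higher. Bambi, a pseudoreceptor that dampens TGF-β and BMP signals, was 3.93, 3.99 and 3.79 in VECs and 1.47, 1.20 and 1.37 in LECs. It was 5.89-fold higher in VECs (log2 difference -2.56, SE 0.097, adjusted p = 5.4e-06). Bmper, an extracellular BMP modulator of endothelium, was -3.00, -2.91 and -3.42 in VECs and was well above background on 0 of 3 LEC arrays (-7.21, -6.08 and -6.69). VECs had at least 2.60-fold more with signals held at or above the lowest signal well above background (adjusted p = 0.0072). As measured, the log2 difference was -3.55 (adjusted p = 1.5e-04), and normexp gave -0.85.

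Chordin (Chrd), which sequesters BMPs, was 1.22-fold higher in VECs (log2 difference -0.28, adjusted p = 0.015). It did not pass without VEC replicate 2 (adjusted p = 0.052) or without scaling between arrays. Noggin (Nog), another BMP trap, did not pass (log2 difference -0.12, 95% confidence interval -0.42 to 0.19). Follistatin (Fst), which traps activins, and gremlin (Grem1), a BMP antagonist of intestinal mesenchyme, were well above background on 0 of 6 arrays. The antagonists lower in LECs were thus the receptor decoy Bambi and the secreted Bmper and Chrd, and the traps Fst and Grem1 gave no signal to compare.

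Genes of the pathway beyond the 50 were described from lists of the same roles, also chosen with earlier results of these data known. Of 21 known SMAD or pathway targets, 16 were lower in LECs, 3 were higher and 2 did not pass, against 32.0% lower and 34.9% higher of all genes. Their median log2 difference was -1.30, against 0.02 over all genes. The transcription factors Snai2 (46.2-fold), Id4 (at least 17.7-fold) and Hey2 (at least 9.28-fold) were the furthest toward VECs. Id4 stood at -0.07, -0.14 and -0.44 in VECs and at -4.95, -5.09 and -4.20 in LECs. The genes higher in LECs were Fn1 (fibronectin, 6.95-fold), Pmepa1 (2.17-fold), a TGF-β-induced inhibitor of SMAD2 and SMAD3 signals, and Ccn2 (1.55-fold). The targets therefore did not move one way, and several also answer to other signals, such as the NOTCH targets Hey1, Hey2 and Hes1 and the immediate early genes Junb and Klf10. All genes named in this paragraph as higher or lower had a adjusted p of at most 0.0015.

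**Figure D4:**
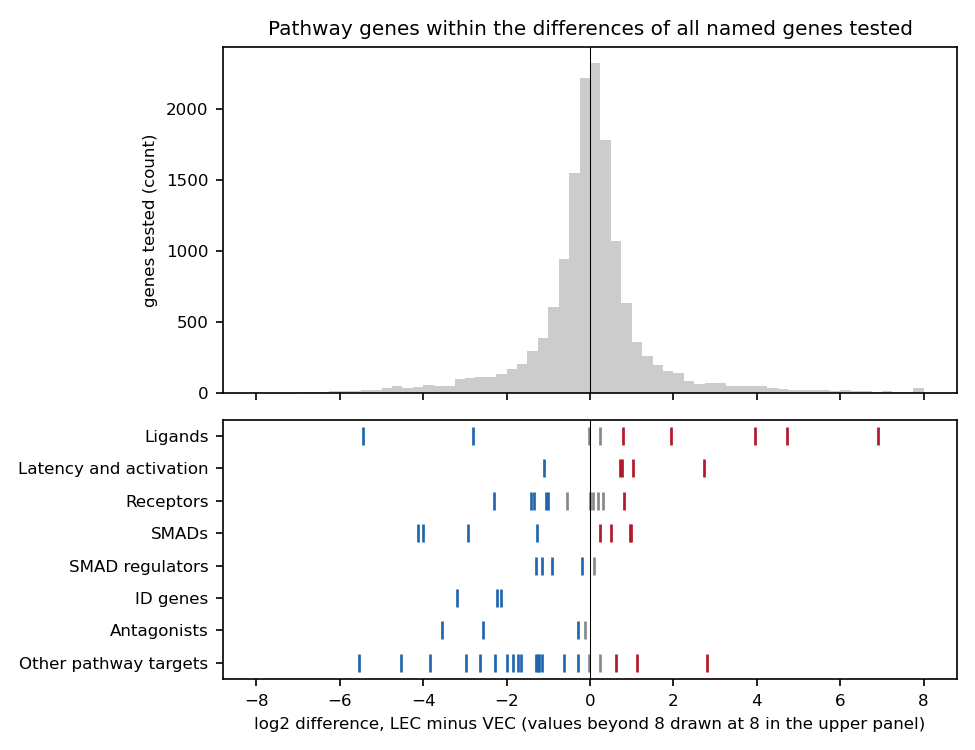
Number of named genes tested by their log2 difference, LEC minus VEC (upper panel, bins of 0.25), and the difference of each tested gene of the 7 roles and of the other pathway targets (lower panel, 1 tick per gene). Ticks are red for genes higher in LECs, blue for genes lower and gray for genes that did not pass. The ID genes and most other targets lie left of the bulk of all genes, and Tgfb3 lies at its far right.

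Of 13 genes that process or anchor latent ligands 10 were tested, of which 6 were higher in LECs and 4 lower, against 34.9% and 32.0% of all genes. The proprotein convertase Pcsk6 was 41.4-fold, the elastic fiber protein Emilin1 10.6-fold and the integrin subunit Itgav, part of the receptors that activate latent TGF-β, 8.83-fold higher in LECs. Its partners Itgb6 and Itgb8 were well above background on 0 of 6 arrays. Nrros (4.45-fold) and Lrrc32 (1.73-fold), membrane anchors of latent TGF-β, and the convertase Furin (1.48-fold) were higher in VECs (adjusted p of these 6 at most 0.0024). Among matrix genes, the Ltbp genes, Emilin1 and the fibrillins Fbn1 and Fbn2 (log2 differences 0.92 and 1.82) were thus higher in LECs, and Thbs1 was lower. Of these, the call of Ltbp2 depended on single arrays, as given above. The membrane anchors Nrros and Lrrc32 were lower in LECs.

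Of 22 other ligands 11 were tested, and 2 of these were higher in LECs and 4 lower. These are 18.2% and 36.4%, against 34.9% and 32.0% of all genes. Lefty1, a secreted inhibitor of Nodal, was 17.5-fold and Gdf1 8.07-fold higher in LECs, the latter sharing its transcript with the ceramide synthase gene Cers1. Gdf9 (2.50-fold), Lefty2 (2.37-fold) and Nodal (1.60-fold) were higher in VECs. Gdf2, which encodes the ALK1 ligand BMP9, was well above background on 0 of 6 arrays, and Bmp10, its close relative, was on 1 array of each group. Neither could be tested.

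Of 9 other receptors and co-receptors 7 were tested, and 1 was higher in LECs and 5 lower (14.3% and 71.4%, against 34.9% and 32.0% of all genes), with Neo1, a receptor of repulsive guidance molecules, 14.3-fold and the ALK1-dependent Tmem100 2.74-fold higher in VECs. Amhr2 was 2.65-fold higher in VECs and Rgma 1.20-fold higher in LECs. Of 18 other antagonists 12 were tested, and 4 were higher and 4 lower in LECs, or 33.3% each way. Sostdc1 (at least 3.76-fold), the proteoglycan Dcn (6.33-fold), also in the list of mesenchymal markers, and Twsg1 (6.22-fold) were higher, and Wfikkn1 (3.40-fold) and Bgn (2.49-fold) were lower. Of 24 intracellular modulators, all tested, 6 were higher and 7 lower (25% and 29.2%), shares below those of all genes. The phosphatase gene Ctdspl was 37.3-fold, Wwp1 2.34-fold and Tab1 1.40-fold higher in LECs, and Tgif2 was 3.32-fold, Tob1 3.13-fold and Lemd3 1.33-fold higher in VECs. The adjusted p of the genes named here was at most 0.0203.

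All 6 arrays were on 1 slide, where row 1 held the VEC arrays and LEC 6, and row 2 held LEC 7 and 8. With the row as a block, 33 of the 36 genes passed, the exceptions being Smad5, Smurf1 and Ltbp2. The difference with this block equals the difference within row 1, where LEC 6 is the single LEC array. LEC 6 lay outside the range of the VEC arrays in the direction of the call for all 36. This follows from the groups of these genes not overlapping and is not a separate check. The log2 difference of Smad6 was -2.76 within that row.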

How the data were processed

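RNA of sorted VECs and LECs was labelled with one color and hybridized to Agilent mouse arrays, 1 array per sample, on 1 slide scanned on 1 day. The deposited scanner files hold intensity values, which the authors made with Agilent Feature Extraction 12.0.3.1 (processed signal after background correction). A deposited table holds log2 values that differ from the log2 intensity by a constant per array in all probes, and was used as an alternative. The authors named Gene Spring GX and an ANOVA for their analysis.

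Control spots and outlier spots were left out, spots of a probe were averaged, and log2 intensity minus the 75th percentile of each array was tested with limma 3.58.1 (R 4.3.3). Probes well above background throughout 1 group (3 of 3 arrays) or both were tested. LECs were compared with VECs by lmFit and eBayes, with Benjamini-Hochberg adjustment over 33777 probes and a threshold of 0.05. The test was checked on simulated data. No spot was saturated. Per array, signals counted as well above background began at 12.1 to 25.1 intensity units, and the number of arrays limits the precision.

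Probes were named by matching their accessions to RefSeq, which gave 32994 probes (58.3%) 1 gene and left 23611 unnamed. A gene is represented by its brightest tested probe. Where a group was not well above background on all its arrays, the fold is a lower bound, from the mean of the brighter group and, per array of the dimmer group, the higher of its own signal and the lowest signal well above background. Signed differences are LEC minus VEC. The genes and lists were chosen with earlier results of these data known. Genes with a difference of at least 2-fold and all ligands well above background on any array are given on every array, and from each other list up to 3 called genes per direction with the largest differences, except 1 that is not reported here. Other genes of those lists (Bmp10, Gdf2, Itgb6, Itgb8, Fbn1, Fbn2, Hey1, Hes1, Junb and Klf10) were named after their values were seen. Alternatives changed the background correction, scaling, dim-probe filter, floor, outlier spots, variance model, test, values, probe rule, slide row, threshold and arrays used. Sequences are of GRCm38.p6 and were not set against array coordinates.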

Additional observations from a re-analysis of the deposited data

How the results depend on the processing

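Of the 45 tested genes, 33 kept their direction and their side of the threshold under every alternative that gave them a value, and 12 did not under at least 1. Bmp7, Gdf10, Smad9 and Bmper are among the 33, though they leave the test when all 6 arrays must be well above background. The alternative with a stricter threshold was not part of this count. The count of genes at least 2-fold higher in LECs was 10 without scaling between arrays, against 6. That setting moved the median log2 difference of all tested probes from -0.03 to 0.20, and testing every probe moved it to 0.12. Without scaling, 1 SMAD regulator was higher in LECs, against 0. With probes required to be well above background on all 6 arrays, 3 ligands were higher, against 5, since Bmp7 and Gdf10 then leave the test. With quantile scaling, with the slide row as a block, and without LEC replicate 7, 2 receptors were higher, against 1, Tgfbr2 being added. Without scaling and without LEC replicate 6, Bmp6 was added to the ligands higher in LECs, which were then 6. When each array was left out in turn, 12 to 14 genes were higher and 20 to 22 lower. Reversed signs were seen for Acvr1 (-0.0046 as the mean of its probes and -0.082 by the probe with the largest adjusted p) and Smurf2 (-0.015 by that probe). Without scaling the signs of Bmp2 (0.19), Nog (0.11) and Smurf1 (0.029) turned, and with the row block that of Bmp6 (-0.072). Acvr1b gave -0.16 with normexp and, with arrays left out in turn, -0.18 to 0.19, and Bmp2 gave -0.088 to 0.052 with arrays left out. Of these genes only Smurf1 had passed, and the causes were not tested. Testing every probe ended the calls of Chrd, Ltbp2, Smad5 and Smurf1, and the methods' one-way test those of Ltbp2 and Smad5. Smurf1 also did not pass with normexp. No paired analysis was run. The VEC and LEC samples share no replicate number, and the labels do not say whether any of them came from the same mice. Signal near background limits the sizes given for Bmp7, Gdf10, Smad9 and Bmper.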
